A study of Mus musculus with 6 samples.

Results

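The liver X receptors (LXRs), a set of their target genes and the lipid droplet coat gene Plin2 were followed in RAW264.7 cells, an established mouse macrophage line. The 10 genes were Nr1h2, Nr1h3, Abca1, Abcg1, Apoe, Lpl, Mylip, Plin2, Scd1 and Scd2. They were matched by symbol, as a set chosen with earlier results of these data known, and each had 1 row among the 22105 rows with an Ensembl gene identifier. mRNA was sequenced from 3 samples given nanoparticles, CM-PEG-PLGA@DOX/R848, at a DOX dose equivalent of 2 µg/mL, and from 3 given phosphate buffered saline (PBS). Both groups were harvested after 24 h. DOX is doxorubicin, which poisons topoisomerase II and damages DNA. R848, or resiquimod, activates Toll-like receptors. PLGA and PEG are polymers of the particle, and the meaning of CM is not stated in the labels. No sample received doxorubicin, R848 or the carrier alone, so their parts in any difference cannot be told apart. The labels do not say whether replicates were separate cultures, and the p-values below therefore rest on the spread among the 3 samples of a group, part or all of which may be technical.

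LXRs are nuclear receptors that sense cholesterol through its oxidised forms, the oxysterols. Nr1h3 encodes LXRα and Nr1h2 encodes LXRβ, and each binds DNA together with a retinoid X receptor (RXR). In macrophages they are known for switching on cholesterol efflux and lipogenic genes, and for restraining inflammatory genes. Lipid droplets store cholesteryl esters and triglycerides, and perilipin 2, the product of Plin2, coats them.

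After nanoparticle treatment both receptor genes, the efflux genes Abcg1 and Apoe and the droplet coat gene Plin2 were higher, while the lipase gene Lpl and the desaturase genes Scd1 and Scd2 were lower. Mylip did not pass the test. Abca1 was too low to be tested. Values are FPKM (fragments normalised to gene length and sequencing depth), a unit inferred from the values. Means carry the SD of the n = 3 libraries of a group. The test was limma on log2(FPKM + 1) over the 10229 genes whose mean reached 1 FPKM, with Benjamini-Hochberg adjustment and a threshold of 0.05. Its fold changes are on that scale, where low genes appear to change less than they do.

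Of the 9 members tested, 5 were called higher and 3 lower. Over all genes tested 42.7% were called higher, 34.5% lower and 77.2% in either direction, so a call alone sets no member apart. The median log2 fold change was 0.35 over the 9 members and 0.08 over all genes tested. Groups did not overlap for any of the 10 members, against 78.8% of the genes tested.

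**Figure D1:**
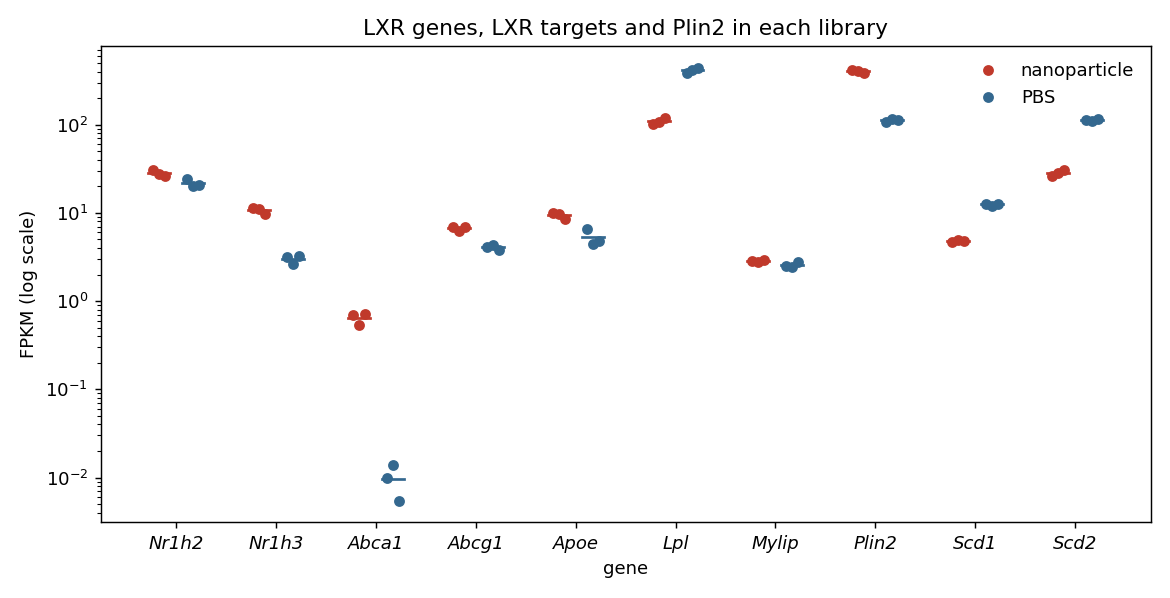
FPKM on a log axis for the 10 genes, 1 point per library, with 3 nanoparticle libraries in red left of 3 PBS libraries in blue and a line at each mean. Plin2 and Lpl sit at opposite heights in the groups, and Abca1 lies under 1 FPKM in every library.

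Libraries of a group resembled each other closely. Correlations of log2 values were at least 0.991 within the nanoparticle group and 0.995 within the PBS group. Genes listed above 0 numbered 15723 to 15989 in nanoparticle libraries and 12678 to 12872 in PBS libraries. The sources used here do not give total fragments per library, and no counting interval is attached to a value. All 12 macrophage markers were tested, 4 called higher and 7 lower, against 42.7% and 34.5% of all genes tested. Cd68, a lysosomal glycoprotein, was at 606 ± 21.9 FPKM in nanoparticle and 792 ± 34.0 FPKM in PBS libraries. Lyz2, lysozyme, was at 395 ± 8.95 FPKM in nanoparticle and 1503 ± 32.2 FPKM in PBS libraries. Csf1r was also lower, at 49.1 ± 1.61 FPKM in nanoparticle and 296 ± 7.93 FPKM in PBS libraries. Adgre1 went the other way, at 12.4 ± 1.16 FPKM in nanoparticle and 1.77 ± 0.177 FPKM in PBS libraries. Of 8 adipocyte markers 1 was tested, the lipase gene Lipe, and Adipoq, the adiponectin gene, averaged 0.0565 FPKM in nanoparticle libraries and was at 0 in every PBS library. The adipocyte list summed to 8.38 to 10.2 FPKM in nanoparticle and 7.45 to 7.77 FPKM in PBS libraries, nearly all of it Lipe. No hepatocyte, fibroblast, epithelial or lymphocyte marker reached the test, and none of these 4 lists summed to more than 0.741 FPKM in a nanoparticle or 0.351 FPKM in a PBS library. In this bulk measurement, fewer cells of a kind and less RNA per cell cannot be told apart.

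Promoter sequence was available for 6 of the 10 members in the RefSeq table used (GRCm38.p6), in 9 windows of the 250 bases before an annotated start. The windows of Abca1 and Plin2 are shown because Abca1 is a classical LXR target and Plin2 had the largest positive log2 fold change of the tested members. Both are written 5′ to 3′ on the gene's strand, the minus strand, at chr4:53159896-53160145 for Abca1 and chr4:86670060-86670309 for Plin2.
Abca1: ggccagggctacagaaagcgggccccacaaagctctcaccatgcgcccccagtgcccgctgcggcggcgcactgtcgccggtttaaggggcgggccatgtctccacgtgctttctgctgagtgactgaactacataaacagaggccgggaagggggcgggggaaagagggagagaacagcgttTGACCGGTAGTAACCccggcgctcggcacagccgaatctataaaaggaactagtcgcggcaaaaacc
Plin2: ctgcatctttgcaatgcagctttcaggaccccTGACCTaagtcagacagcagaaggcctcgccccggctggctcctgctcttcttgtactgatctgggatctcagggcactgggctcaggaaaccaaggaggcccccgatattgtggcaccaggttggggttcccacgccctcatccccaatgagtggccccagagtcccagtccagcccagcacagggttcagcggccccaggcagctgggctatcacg

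LXR response elements are direct repeats of the hexamer AGGTCA with a short spacer. The capitals in the Abca1 window mark the match to the relaxed repeat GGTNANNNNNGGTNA, which reads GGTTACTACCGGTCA on the opposite strand and lies 67 to 53 bases before the start. Searched on both strands, this motif was found in 0.621% of all 32851 windows of the same length, and Abca1 was the 1 member with a match. The capitals in the Plin2 window mark a single hexamer, AGGTCA on the opposite strand, 218 to 213 bases before the start. That hexamer was in 14.0% of all windows and in no other member window. TATAAA was found for Abca1, Apoe and Mylip (12.4% of all windows) and CACGTG for Abca1 (6.02%). Neither GAAANNGAAA (2.98% of all windows) nor TCACNCCAC (1.05%) was found in a member window. The relaxed repeat and the hexamer can overlap, and a match describes the letters of the window and not a bound site.

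Nr1h3 (ENSMUSG00000002108, chromosome 2, 91184061 to 91202834, minus strand, GRCm38) encodes LXRα. It was measured at 11.3, 10.9 and 9.67 FPKM in nanoparticle libraries and at 3.19, 2.63 and 3.27 FPKM in PBS libraries. Every nanoparticle value was well above every PBS value. The mean was 10.6 ± 0.870 FPKM in nanoparticle and 3.03 ± 0.350 FPKM in PBS libraries, a 3.51-fold difference (log2 fold change 1.53 ± 0.09 SE, limma adjusted p = 2.3e-07). Nr1h2 (ENSMUSG00000060601, chromosome 7, 44549616 to 44553951, minus strand), for LXRβ, was the more abundant receptor in both groups. It was at 30.8, 27.5 and 26.0 FPKM in nanoparticle libraries and at 24.2, 20.2 and 20.8 FPKM in PBS libraries. The groups did not overlap but came close, and the rise was small (1.29-fold, log2 fold change 0.35 ± 0.08 SE, limma adjusted p = 0.0034).

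The fold change was larger for Nr1h3 than for Nr1h2. The ratio of Nr1h3 to Nr1h2, each as FPKM + 1, was 0.388, 0.419 and 0.395 in nanoparticle libraries and 0.167, 0.171 and 0.195 in PBS libraries. All nanoparticle ratios were higher than all PBS ratios, with a log2 difference of 1.18 (two-sided exact permutation p = 0.1, the smallest that 3 against 3 libraries allow). No stretch of 50 bases was shared between the annotated transcripts of the pair.

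**Figure D2:**
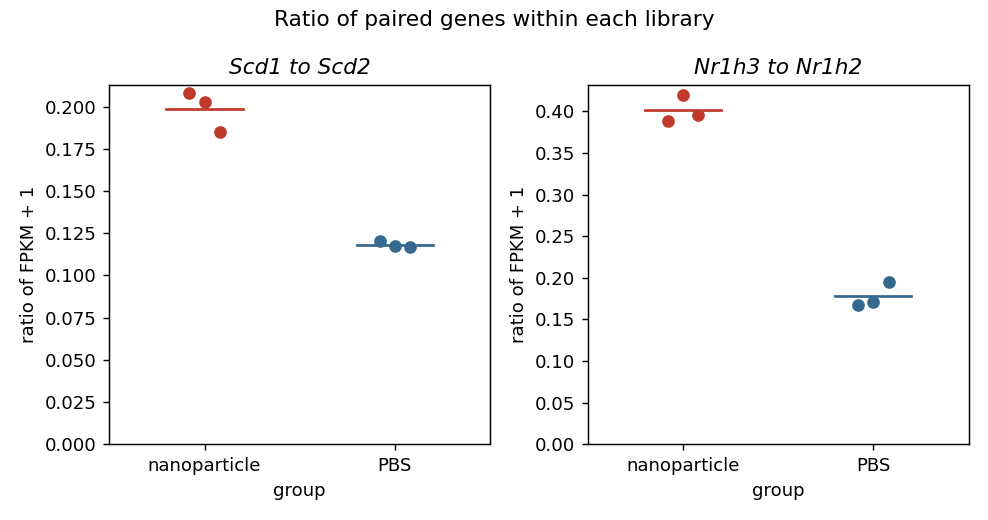
Ratio of FPKM + 1 within each library for Scd1 to Scd2 and for Nr1h3 to Nr1h2, 1 point per library and a line at the mean, nanoparticle left of PBS. Both ratios were higher in all 3 nanoparticle libraries than in any PBS library.

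Among the partners and coregulators of LXR, 2 of 12 tested genes were called higher and 7 lower, with a median log2 fold change of -0.28. The shares over all genes tested were 42.7% higher and 34.5% lower, with a median of 0.08. Rxrb, an RXR gene, averaged 34.0 ± 2.38 FPKM in nanoparticle and 29.2 ± 1.90 FPKM in PBS libraries and was called higher by 0.22, a call lost with upper quartile scaling, with median-ratio scaling, without nanoparticle replicate 1 and without PBS replicate 3 (limma adjusted p of 0.059 to 0.30). Rxra stayed between 0.152 and 0.282 FPKM in all 6 libraries and was not tested. Tbl1x and Tbl1xr1, which encode subunits of the NCoR corepressor complex, fell (log2 fold changes of -0.99 and -0.88). Gps2, another subunit of that complex, was called higher by 0.21, and this call was also lost with both scalings and without PBS replicate 3 (limma adjusted p of 0.057 to 0.28). The counts of the list were 0 higher and 7 lower under either of these scalings, 3 higher and 4 lower with scaling by the upper quartile of values above 0, 1 higher and 5 lower without nanoparticle replicate 1, and 0 higher and 5 lower without PBS replicate 3. Ppard, the peroxisome proliferator-activated receptor δ gene, rose to 13.9 ± 0.416 FPKM in nanoparticle libraries, against 5.07 ± 0.127 FPKM in PBS libraries. Pparg averaged 0.115 FPKM in nanoparticle and 0.00774 FPKM in PBS libraries and was not tested. Ppargc1b, a coactivator gene, fell (log2 fold change -1.08).

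Genes of oxysterol synthesis and removal were unevenly expressed. Cyp27a1, a mitochondrial sterol hydroxylase that makes an oxysterol ligand of LXR, rose to 43.0 ± 1.67 FPKM in nanoparticle libraries, against 7.61 ± 0.368 FPKM in PBS libraries (log2 fold change 2.35 ± 0.06 SE, limma adjusted p = 1.2e-09). Cyp11a1, the side-chain cleavage enzyme of steroid synthesis, rose to 9.77 ± 0.972 FPKM, against 0.747 ± 0.235 FPKM in PBS libraries. These were the 2 tested genes of the 6 listed. Ch25h, a cholesterol hydroxylase gene known to be induced by interferon in macrophages, was listed at 0 in all 6 libraries.

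The sterol efflux targets were higher or, for Abca1, untested. Abcg1 (ENSMUSG00000024030, chromosome 17, 31057675 to 31117988, plus strand) encodes a transporter that passes cholesterol to lipoprotein particles. It was at 6.95, 6.30 and 6.94 FPKM in nanoparticle libraries and at 4.12, 4.33 and 3.84 FPKM in PBS libraries. The groups were clearly apart, with a 1.64-fold rise (log2 fold change 0.60 ± 0.08 SE, limma adjusted p = 5.3e-05). Apoe (ENSMUSG00000002985, chromosome 7, 19696109 to 19699188, minus strand), the apolipoprotein that accepts effluxed cholesterol, was at 9.87, 9.83 and 8.42 FPKM in nanoparticle libraries and at 6.64, 4.44 and 4.84 FPKM in PBS libraries. PBS replicate 1 was the highest of its group and still below every nanoparticle library, and the rise was 1.77-fold (log2 fold change 0.73 ± 0.12 SE, limma adjusted p = 4.0e-04). Apoc2, which lies in the same gene cluster and encodes the activating cofactor of lipoprotein lipase, also rose (log2 fold change 0.66). Apoc2 was low, at 1.60 ± 0.257 FPKM in nanoparticle and 0.661 ± 0.301 FPKM in PBS libraries, and was untested with a filter of 5 FPKM. Its neighbours Apoc1 and Apoc4 were listed at 0 in every library.

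Abca1 (ENSMUSG00000015243, chromosome 4, 53030787 to 53159895, minus strand) encodes the transporter that loads cholesterol onto lipid-poor apolipoproteins. It was listed at 0.698, 0.538 and 0.708 FPKM in nanoparticle libraries and at 0.00990, 0.0139 and 0.00548 FPKM in PBS libraries. The PBS values were close to 0 and the groups far apart, but the mean over all libraries was under the 1 FPKM needed for the test. Fitted with no filter on low values, its log2 fold change was 0.71 (SE 0.04, adjusted p = 2.5e-05 in limma). Nanoparticle libraries listed more genes above 0, and of 10269 genes with a PBS mean under 0.05 FPKM, 57.1% had a higher nanoparticle mean. Genes at 0 in every library are counted among the 10269 and could not be higher. A nanoparticle mean at least as high as that of Abca1 was reached by 97 of the 10269 genes, Abca1 included, or 0.945%. The part of that general shift in the values of Abca1 was not tested.

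Of the other LXR targets listed, 7 of 14 were tested. Of these, 2 were called higher and 4 lower (median log2 fold change -0.35), against 42.7% and 34.5% of all genes tested. That balance depended on the setting, with 3 higher and 2 lower after scaling by the upper quartile of values above 0, 5 higher and 4 lower with no filter on low values, and 0 higher and 4 lower with a filter of 5 FPKM. Srebf1, the lipogenic transcription factor SREBP1, fell to 16.7 ± 1.09 FPKM in nanoparticle libraries, against 26.7 ± 1.97 FPKM in PBS libraries. Rnf145, a ubiquitin ligase gene of the endoplasmic reticulum, fell (log2 fold change -0.52), as did Fasn, fatty acid synthase (-0.42), a call lost with scaling by the upper quartile of values above 0 (-0.16, limma adjusted p = 0.075). The sterol transporter gene Abcg5 was at 0.114, 0.114 and 0.146 FPKM in nanoparticle libraries and at 0 in every PBS library. Abcg8 averaged 0.0288 FPKM in nanoparticle libraries and was at 0 in PBS libraries. Cd5l, a secreted scavenger protein gene, averaged 0.141 FPKM in nanoparticle and 0.160 FPKM in PBS libraries. In the list of other sterol transport genes, 7 of 12 tested were called higher and 4 lower (median 0.24). The shares over all genes tested were 42.7% and 34.5%. The counts of the list were 8 and 1 after scaling by the upper quartile of values above 0. They were 5 and 4 after upper quartile or median-ratio scaling. Npc2, which carries cholesterol out of lysosomes, rose to 285 ± 9.04 FPKM in nanoparticle libraries, against 79.6 ± 3.15 FPKM in PBS libraries, while the endolysosomal transporter gene Abca2 fell (log2 fold change -0.91).

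Mylip (ENSMUSG00000038175, chromosome 13, 45389742 to 45412022, plus strand) encodes IDOL, a ubiquitin ligase that directs receptor proteins to degradation. It was at 2.83, 2.80 and 2.89 FPKM in nanoparticle libraries and at 2.50, 2.47 and 2.77 FPKM in PBS libraries. The groups did not overlap, but the log2 fold change of 0.10 (SE 0.08) did not pass (limma adjusted p = 0.24). It was called higher after 1 alternative scaling, by the upper quartile of values above 0 (0.30, limma adjusted p = 0.0057). Of the genes of its known substrates, Lrp8, an Apoe receptor gene, fell to 3.06 ± 0.469 FPKM in nanoparticle libraries, against 19.3 ± 1.56 FPKM in PBS libraries. Vldlr was listed at 0 in all libraries. IDOL is known to act on the receptor proteins, which were not measured.

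Lpl (ENSMUSG00000015568, chromosome 8, 68880491 to 68907448, plus strand) encodes lipoprotein lipase, which frees fatty acids from lipoprotein triglycerides. It was at 103, 108 and 119 FPKM in nanoparticle libraries and at 390, 421 and 443 FPKM in PBS libraries. Each nanoparticle library was well below each PBS library, and the mean was 3.80-fold lower (110 ± 8.52 FPKM in nanoparticle, 418 ± 27.1 FPKM in PBS libraries). The log2 fold change was -1.92 ± 0.07 SE (limma adjusted p = 9.0e-09), and 73 of the 10229 genes tested had a more negative one. By mean FPKM Lpl ranked 712 of all 22105 genes in nanoparticle libraries and 147 in PBS libraries.

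Regulators of the lipase moved both ways, 3 of 5 tested higher and 2 lower (median log2 fold change 0.25), or 3 and 1 with a filter of 5 FPKM. So did the genes tested as a whole, with 42.7% called higher and 34.5% lower. Furin, a protease known to cleave and inactivate the enzyme, rose to 76.8 ± 2.98 FPKM in nanoparticle libraries, against 12.6 ± 1.05 FPKM in PBS libraries. Angptl4, a secreted inhibitor of the enzyme, fell to 1.37 ± 0.228 FPKM, against 3.41 ± 0.640 FPKM in PBS libraries.

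Scd1 and Scd2 encode stearoyl-CoA desaturases, which make monounsaturated fatty acids. They lie in a cluster with Scd3 and Scd4 on chromosome 19 (44203269 to 44407879), with Scd2 at 44293674 to 44306864 on the plus strand (ENSMUSG00000025203) and Scd1 at 44394455 to 44407879 on the minus strand (ENSMUSG00000037071). Scd2 was the more abundant in all libraries. It was at 26.5, 28.4 and 30.4 FPKM in nanoparticle libraries and at 113, 110 and 117 FPKM in PBS libraries. The mean was 3.98-fold lower (log2 fold change -1.96 ± 0.06 SE, limma adjusted p = 3.4e-09). Scd1 was at 4.72, 4.97 and 4.82 FPKM in nanoparticle libraries and at 12.8, 12.0 and 12.8 FPKM in PBS libraries. It was 2.58-fold lower, again with no overlap (log2 fold change -1.21 ± 0.07 SE, limma adjusted p = 1.4e-07).

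The fold change was larger for Scd2 than for Scd1. The ratio of Scd1 to Scd2, each as FPKM + 1, was 0.208, 0.203 and 0.185 in nanoparticle libraries and 0.120, 0.117 and 0.117 in PBS libraries. All nanoparticle ratios lay above all PBS ratios, with a log2 difference of 0.75 (two-sided exact permutation p = 0.1, again the smallest possible). Scd2 made up 84.9% to 86.3% of the summed FPKM of the pair in nanoparticle libraries and 89.9% to 90.2% in PBS libraries. The paralogs Scd3 and Scd4 were too low to be tested. Scd3 averaged 0.403 FPKM in nanoparticle and 1.28 FPKM in PBS libraries, and Scd4 averaged 0.230 FPKM in nanoparticle and 0.906 FPKM in PBS libraries. Of the 50-base stretches of the annotated Scd1 transcripts, 2.97% also occurred in Scd2, 3.42% in Scd3 and 1.72% in Scd4, so the split of fragments between them is uncertain at those stretches.

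The wider list of fatty acid synthesis, elongation and desaturation had 7 of 9 tested genes lower and 2 higher, with a median log2 fold change of -1.01. Among all genes tested, 34.5% were called lower and 42.7% higher. The count higher in the list was 1 after upper quartile or median-ratio scaling and without PBS replicate 1 or 2. The count lower was 5 after scaling by the upper quartile of values above 0. It was 6 without nanoparticle replicate 2, PBS replicate 1 or PBS replicate 3. With no filter on low values 9 were lower and 5 higher. Fads2, a desaturase of polyunsaturated fatty acids, fell to 31.7 ± 1.38 FPKM in nanoparticle libraries, against 112 ± 2.85 FPKM in PBS libraries. Fads1, another of these desaturases, fell to 36.5 ± 0.782 FPKM, against 84.4 ± 2.34 FPKM in PBS libraries. Mecr, of mitochondrial fatty acid synthesis, went the other way (0.58). Among fatty acid uptake and activation genes 5 of 10 tested were higher and 5 lower (median 0.01), and the carrier gene Fabp5 and the acyl-CoA synthetase gene Acsl5 fell (-0.88 and -0.77).

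**Figure D3:**
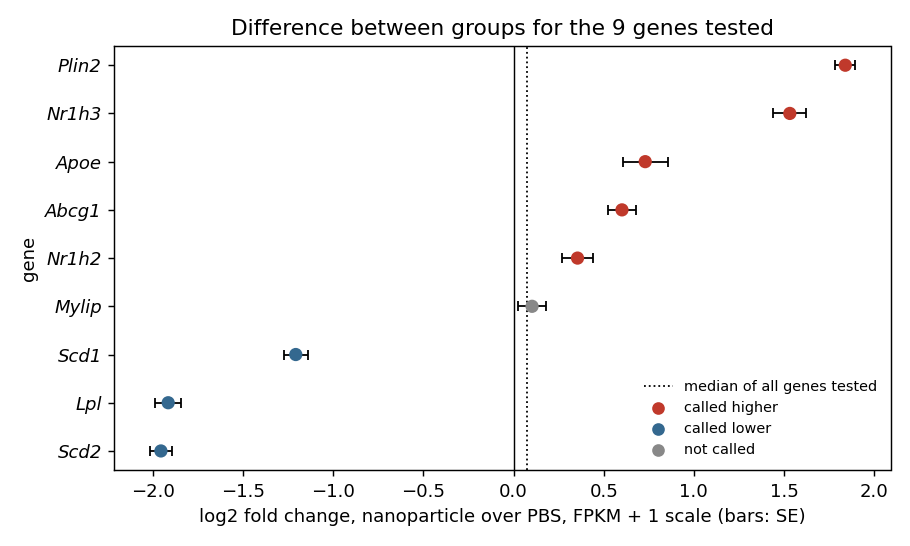
Log2 fold change of nanoparticle over PBS on the FPKM + 1 scale for the 9 members tested, with SE bars and a dotted line at the median of all genes tested, 0.08. Plin2 at 1.84 and Scd2 at -1.96 mark the ends, and Mylip at 0.10 is the 1 gene not called.

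Plin2 (ENSMUSG00000028494, chromosome 4, 86648386 to 86670060, minus strand) was the most abundant member in nanoparticle libraries. It was at 421, 409 and 388 FPKM in nanoparticle libraries and at 108, 116 and 113 FPKM in PBS libraries. The mean was 3.60-fold higher and the groups were widely apart (log2 fold change 1.84 ± 0.06 SE, limma adjusted p = 2.3e-09), with 336 of the genes tested above it. By mean FPKM it ranked 155 of all genes in nanoparticle libraries and 657 in PBS libraries, the reverse of the shift of Lpl. The ratio of Plin2 to Lpl was 4.10, 3.78 and 3.25 in nanoparticle libraries and 0.278, 0.277 and 0.255 in PBS libraries. Plin2 held 65.0% to 68.2% of the summed FPKM of the 10 members in nanoparticle libraries and 15.7% to 16.8% in PBS libraries. Lpl held 16.6% to 20.0% in nanoparticle libraries and 58.6% to 61.5% in PBS libraries.

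**Figure D4:**
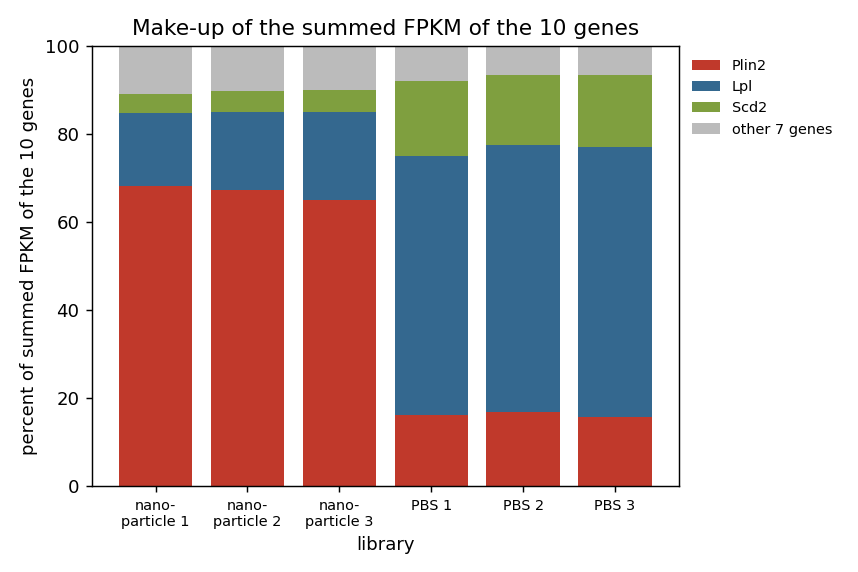
Share of the summed FPKM of the 10 genes, in percent, taken by Plin2, Lpl, Scd2 and the other 7 genes in each library, nanoparticle libraries left of PBS libraries. Plin2 takes 65.0% to 68.2% in nanoparticle libraries, and Lpl takes 58.6% to 61.5% in PBS libraries.

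Other lipid droplet genes were higher or not called. Of 7 tested among 16 listed, 4 rose, none fell and 3 did not pass (median log2 fold change 0.48). Over all genes tested 42.7% were called higher and 34.5% lower, and this list was not tested as a whole. The count higher was 7 after scaling by the upper quartile of values above 0 and 8 with no filter on low values, with none lower. Hilpda, a droplet protein that inhibits triglyceride lipolysis, rose to 54.8 ± 7.30 FPKM in nanoparticle libraries, against 12.6 ± 0.453 FPKM in PBS libraries. Hsd17b11, a droplet-associated dehydrogenase gene, and Plin3, another perilipin gene, rose by log2 fold changes of 0.92 and 0.99. The adipocyte droplet genes Plin1 and Cidec averaged 0.0531 and 0.0465 FPKM in nanoparticle libraries and were not tested.

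Genes that fill droplets and genes that empty them both moved in either direction, as did all genes tested (42.7% called higher, 34.5% lower). In triglyceride and cholesteryl ester synthesis 8 of 15 tested genes rose and 4 fell (median log2 fold change 0.25). The counts were 7 higher and 6 lower after upper quartile or median-ratio scaling, 9 higher and 2 lower after scaling by the upper quartile of values above 0, and 4 higher and 3 lower with a filter of 5 FPKM. Without nanoparticle replicate 2, and likewise without PBS replicate 3, 8 were higher and 2 lower. Gpat3, which starts glycerolipid synthesis, rose to 7.68 ± 0.682 FPKM in nanoparticle libraries, against 0.452 ± 0.0818 FPKM in PBS libraries. Mogat1, a monoacylglycerol acyltransferase gene, rose by 1.49. The enzymes of Dgat1 and Dgat2 complete triglycerides. Dgat1 rose to 25.1 ± 2.48 FPKM, against 6.48 ± 0.856 FPKM in PBS libraries, and Dgat2 rose to 3.02 ± 0.331 FPKM, against 0.281 ± 0.0307 FPKM in PBS libraries. Gpam, the mitochondrial counterpart of Gpat3, fell (-0.46). In the lipolysis list 3 of 8 tested genes rose and 2 fell (median 0.06). Pnpla2, adipose triglyceride lipase, rose to 55.5 ± 6.73 FPKM, against 16.5 ± 1.45 FPKM in PBS libraries, and its activator gene Abhd5 rose by 0.88. Lipa, the lysosomal acid lipase gene, fell (-0.49).

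**Figure D5:**
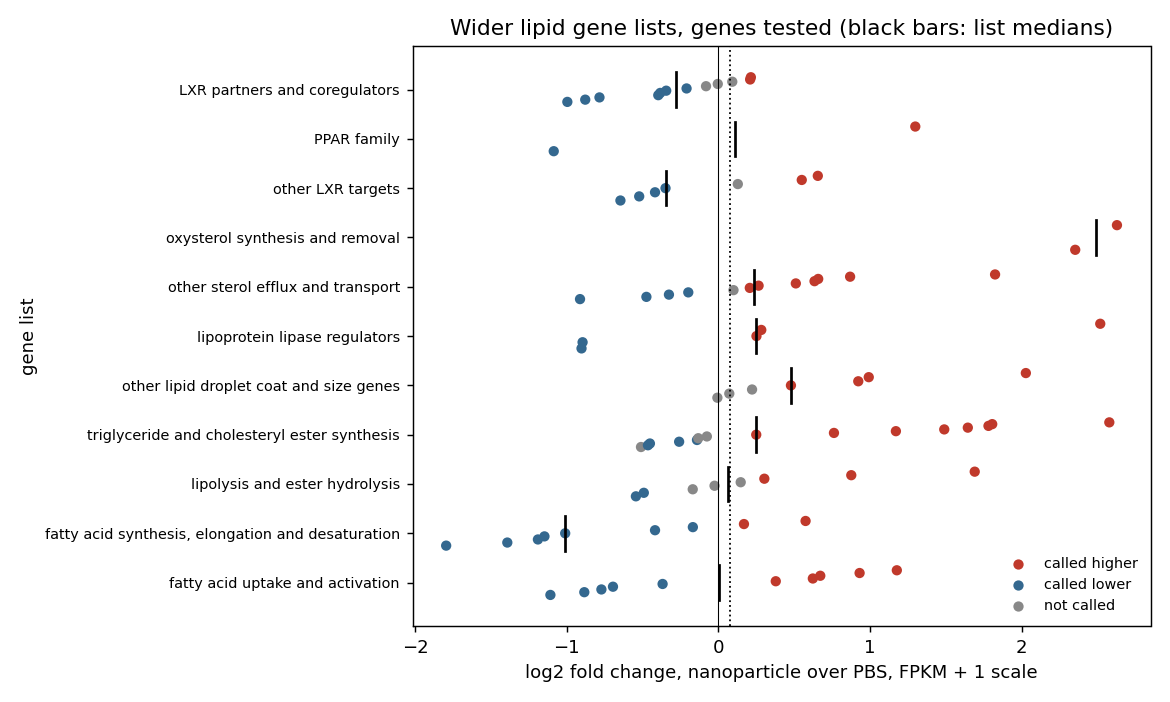
Log2 fold change of nanoparticle over PBS on the FPKM + 1 scale for the tested genes of 11 wider lipid lists, 1 point per gene, black bars at list medians and a dotted line at the median of all genes tested. The fatty acid synthesis list has its median at -1.01, and the droplet coat list has no gene called lower.

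Across the 11 wider lists together, 88 of 130 genes were tested, of which 39 (44.3%) were called higher and 35 (39.8%) lower, against 42.7% and 34.5% of all genes tested. Scaling by the upper quartile of values above 0 left 23 called lower. No list as a whole was tested.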

How the data were processed

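The authors deposited 1 table with 1 value per gene and library. Its header names no unit. The values are decimals whose sums differ between libraries, and they were taken as FPKM, normalised by the authors to gene length and depth. The submitters' processing notes name STAR and featureCounts, without versions, and the builds GRCm38 and mm10. The column used for PBS replicate 1 adds a suffix to the library name in the labels, and the labels do not explain it. Of 22614 rows, 509 without an Ensembl gene identifier held 0.427% to 0.498% of a library's FPKM and were left out. The sources used here do not give total depth, and no test of counts was run.

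Genes whose mean over all libraries reached 1 FPKM were tested on log2(FPKM + 1) with limma 3.58.1 (R 4.3.3), an intensity trend, treatment as the only term and two-sided Benjamini-Hochberg adjusted p-values. The procedure was checked on simulated data in which few genes changed and scaling did not differ between groups. That check does not cover data where most genes are called, as here. Exact permutation tests were used for the ratios within a library. Deviations of same-numbered libraries from their group means correlated weakly (r = 0.13, 0.11 and 0.35 for replicates 1, 2 and 3). Nanoparticle replicate 1 correlated more closely with PBS replicate 2 than with PBS replicate 1. Whether the numbers pair the libraries is therefore not known, and neither the main test nor the permutation tests used a pairing. A replicate block was among the alternatives, with other pseudocounts, filters, scalings, moderation and left-out libraries. Positions and transcripts are from GENCODE M21 (GRCm38). Nr1h3, Abcg1 and Scd2 overlap annotated genes that have no row with an Ensembl gene identifier in the deposited table. The levels of those overlapping genes are therefore not known. No other member overlaps an annotated gene. Python 3.11.15, pandas 2.3.3 and matplotlib 3.10.9 served for the remaining tables and the figures.

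Members and lists were chosen with earlier results of these data known. Named genes were all members, the 2 tested genes with the smallest p in each wider list, the strongest call against its majority, and a fixed set of LXR targets, receptors and markers. Rxra, Rxrb, Scd3, Scd4, Apoc1, Apoc4, Fasn, Plin1, Plin3, Cidec, Lipe, Dgat1 and Dgat2 were added after their values were seen. The result of 1 gene that this rule names is not reported here, and the list that held it was left out of the wider lists.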

Additional observations from a re-analysis of the deposited data

How the results depend on the processing

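The 5 members called higher and 3 called lower kept these counts with the replicate block, with every planned scaling, pseudocount and moderation and without any 1 library. With no filter on low values 6 were called higher, Abca1 being added. The replicate block changed no call of a member or of a gene named with a fold change. Scaling by the upper quartile of the genes tested or by median ratios shifted the median log2 fold change of all genes by -0.11. Scaling by the upper quartile of values above 0, chosen after seeing the data, shifted it by 0.24. That quartile is taken over more genes in nanoparticle libraries, which list more genes above 0. Under it the calls over all genes were 71.8% higher and 28.2% lower, against 55.3% and 44.7% in the values as deposited, 2279 genes were called lower against 3530, and Mylip was called (log2 fold change 0.30). The 11 wider lipid lists then had 23 genes called lower, against 35. Cd68 and Fasn were not called lower there (-0.12 and -0.16). The droplet coat list had no gene called lower under any scaling, with 4 to 7 higher. With no pseudocount the log2 difference of the ratios was 0.63 for Scd1 to Scd2 and 1.45 for Nr1h3 to Nr1h2. A filter of 5 FPKM left Mylip untested. With unknown depth, values under 1 FPKM carry no error beyond the spread of 3 libraries.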
